A study of Mus musculus with 22 samples.

Results

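The Gimap genes are a family of 8 genes that lie side by side on mouse chromosome 6, and their transcripts were followed here in 22 RNA sequencing libraries of TH2 cells cultured with or without calcitriol. Members were the rows of the count table whose Ensembl identifiers carry the symbols Gimap1, Gimap3, Gimap4, Gimap5, Gimap6, Gimap7, Gimap8 and Gimap9 in GENCODE M21. All 8 of 8 were found among 49671 genes in the table, and all 8 passed the filter on low counts, which left 11905 genes for testing. With calcitriol, 6 of the 8 members were higher and none was lower, where 16.1% of all tested genes were higher and 15.5% lower. Gimap9 and Gimap5 did not pass the test, and the call of Gimap3 held under only 20 of 35 alternative settings.

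GIMAP proteins (GTPases of the immunity-associated protein family) bind GTP through a shared AIG1-type domain, and most are attached to intracellular membranes such as those of the endoplasmic reticulum, Golgi apparatus and lysosomes. They are made mainly in lymphocytes and are known for keeping resting T cells alive: animals without functional Gimap5 lose peripheral T cells. Calcitriol, the active form of vitamin D, binds the vitamin D receptor, a transcription factor that pairs with retinoid X receptors on DNA, and T cells gain the receptor when they are activated.

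The cells were T helper cells from wild type Balb/c mice, polarized in vitro towards the type 2 fate, which is marked by the cytokines IL-4 and IL-13, and harvested at day 5. In 11 libraries calcitriol had been present at 100 nM for the last 24 hours, and 11 libraries came from cultures given 2% ethanol, the solvent, over that time. It is not stated whether the calcitriol cultures held the same ethanol. Mice of both sexes, obtained at 6 to 8 weeks, had been bred for 2 generations on food with 400, 1000 or 4000 IU of vitamin D3 per kg, and the labels tie no library to a mouse, a sex, a diet or a culture. Whether libraries came from separate cultures or animals is therefore not given, and p-values cover only the scatter of these libraries, which may be partly technical. Replicate numbers follow the order of deposition and only name a library. Libraries that were each other's best match by correlation within a group had consecutive numbers. These were 3 with 4, 5 with 6 and 7 with 8 in both groups, 10 with 11 in vehicle and 1 with 2 in calcitriol. Counting such pairs as single sets leaves 7 sets in either group, so 11 libraries may be fewer independent samples.

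Total counts ran from 3214171 to 20258430 per library with a median of 7504710, and the groups did not differ in depth by a two-sided permutation test (p = 0.978, adjusted p = 0.978). The 15 T cell markers summed to between 5322 and 6476 CPM, a level relative to the TMM-scaled library total, in vehicle libraries and to between 5651 and 6282 CPM in calcitriol libraries. Within that list Cd3d, Cd3g, Cd28 and Cd3e were called higher with calcitriol, and Cd5, Cd4 and Il13 lower. Il13 went from 333 ± 104 (SD) to 203 ± 106 CPM (log2 change -0.72; edgeR, adjusted p = 0.0204), and Il4 did not pass (adjusted p = 0.166). Lists of markers for 6 other cell types summed to between 1.94 and 13.9 CPM. Within these lists Fcgr1, Clec9a, Ncr1, Cdh5 and Tpsb2 had no count in any library, but other markers were detected. The highest of each list were Cd79b (mean 2.1 CPM over all libraries), Cd68 (7.1), Zbtb46 (3.6), Cd8b1 (5.8), Egfl7 (6.0) and Hdc (2.5). The 6 dendritic cell markers summed to between 3.87 and 6.73 CPM with vehicle and to between 2.11 and 6.12 CPM with calcitriol (two-sided permutation test, adjusted p = 0.0038). That sum was mostly Zbtb46, at 4.68 ± 0.87 CPM (SD, n = 11) with vehicle and 2.59 ± 0.88 CPM with calcitriol, and 4 of the 6 markers were under 1 CPM in every library. The 8 myeloid markers went from 6.49 ± 1.86 to 9.02 ± 2.68 CPM (adjusted p = 0.0965), mostly as Cd68, and the part of either list in the results below was not tested. On the second principal component of the 500 most variable genes, replicates 1 and 2 of both groups stood apart, with scores of 12.4 to 16.8 against -11.2 to 6.56 in the other 18 libraries. All 4 of these libraries had totals below the median. The other libraries below it scored from -11.2 (calcitriol replicate 6) to 6.56 (vehicle replicate 4), and the part of depth in these scores was not tested.

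The cluster spans 123.6 kb (GRCm38, chr6:48647234-48770851). In order of position it runs Gimap8, Gimap9, Gimap4, Gimap6, Gimap7, Gimap1, Gimap5 and Gimap3, with gaps of 2.4 to 15.3 kb between neighbours. Gimap6 and Gimap3 are on the minus strand and the other 6 members are on the plus strand. Gimap1 and Gimap5 are the closest pair: Gimap1 ends at position 48743795 and Gimap5 starts at 48746197.

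Promoter windows of the members, from 250 bases before to 50 bases after each start site, were taken from RefSeq (GRCm38.p6). There were 9 windows for the 8 members, because Gimap8 has a pair of overlapping ones. The 250 bases before the start site are shown for 4 members: Gimap1 and Gimap6, whose libraries separated completely by treatment, Gimap4, the member with the highest level, and Gimap5, the close neighbour of Gimap1 that did not pass the test. Capitals mark an ETS core (CGGAAG or AGGAAG) or a RUNX core (TGTGGT or TGCGGT) on either strand, so that a core on the opposite strand reads CTTCCG or CTTCCT (ETS), or ACCACA or ACCGCA (RUNX). Each sequence runs 5′ to 3′ on the strand of its gene.
Gimap1, chr6:48738797-48739046, plus strand: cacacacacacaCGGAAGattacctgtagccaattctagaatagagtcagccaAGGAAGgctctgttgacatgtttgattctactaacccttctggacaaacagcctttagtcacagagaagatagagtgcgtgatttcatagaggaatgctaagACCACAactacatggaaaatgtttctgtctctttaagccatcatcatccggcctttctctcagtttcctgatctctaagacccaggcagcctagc
Gimap6, chr6:48708245-48708494, minus strand: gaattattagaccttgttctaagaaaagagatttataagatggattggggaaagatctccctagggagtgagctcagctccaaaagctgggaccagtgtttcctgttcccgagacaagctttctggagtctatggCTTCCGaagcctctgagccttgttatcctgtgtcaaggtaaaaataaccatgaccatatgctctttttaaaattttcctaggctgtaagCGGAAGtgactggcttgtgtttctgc
Gimap4, chr6:48684328-48684577, plus strand: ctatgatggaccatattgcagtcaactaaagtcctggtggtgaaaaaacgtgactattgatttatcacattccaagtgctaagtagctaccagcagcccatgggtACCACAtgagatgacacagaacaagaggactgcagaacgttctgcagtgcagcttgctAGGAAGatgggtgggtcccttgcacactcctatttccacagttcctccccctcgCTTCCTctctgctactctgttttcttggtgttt
Gimap5, chr6:48745947-48746196, plus strand: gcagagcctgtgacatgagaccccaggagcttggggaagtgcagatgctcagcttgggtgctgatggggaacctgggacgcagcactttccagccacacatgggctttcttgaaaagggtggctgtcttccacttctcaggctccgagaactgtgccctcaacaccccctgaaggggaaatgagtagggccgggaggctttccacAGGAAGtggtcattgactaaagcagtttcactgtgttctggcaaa

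These cores were chosen after the expression values had been seen, because ETS and RUNX factors are major transcription factors of T cells. An ETS core was present in 9 of the 9 member windows, and 46.5% of 32817 promoter windows of the same length hold one. The overlapping windows of Gimap8 share a core, so they are not separate cases, and the count by gene is all 8 members. In Gimap5, which did not pass the test, it lay 45 bases before the start site, and in Gimap6 one lay 26 bases before it. A RUNX core was present in 4 windows, those of Gimap9, Gimap4, Gimap7 and Gimap1, against 22.4% of all windows, and in each it was on the opposite strand, between 79 and 145 bases before the start site. The Ikaros core TGGGAA, whose letters can overlap an ETS core, was found only in the Gimap3 window (25.6% of all windows), and a GATA core (AGATAA or TGATAA) only in the Gimap4 window (18.6%). A vitamin D receptor site, meaning a direct repeat with 3 bases between its copies, each copy being AGGTCA or GGGTCA or, with a T in the third place, AGTTCA or GGTTCA, on either strand, was found in 0 of the 9 windows and in 0.0396% of all windows. Single copies lay in the windows of Gimap4 and Gimap9 (43.7% of all windows). A match describes the letters in a window and does not show binding.

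The largest rise was in Gimap1, which encodes a membrane-anchored GTPase needed for the survival of mature B and T cells. Its vehicle libraries ran from 82.7 through a median of 102 to 124 CPM, and its calcitriol libraries from 137 through 155 to 171 CPM. Every calcitriol library was above every vehicle library. The means were 101 ± 11.7 and 154 ± 11.3 CPM, a log2 change of 0.61 ± 0.06 (SE) or 1.53-fold (edgeR, adjusted p = 4.14e-09). A change in the share of cells of a type and a change in RNA per cell cannot be told apart in such bulk libraries.

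Gimap6, whose protein binds the ATG8 family member GABARAPL2 and has been tied to autophagy, also separated completely by treatment. Vehicle libraries spanned 242 to 353 CPM with a median of 302, and calcitriol libraries spanned 355 to 498 CPM with a median of 424. The lowest calcitriol library was thus just above the highest vehicle library. Its log2 change was 0.49 ± 0.07, or 1.40-fold, from 298 ± 36.8 to 417 ± 43.0 CPM (edgeR, adjusted p = 1.69e-06).

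Gimap4, which encodes a GTPase reported to hasten the death of T cells after apoptotic signals, also rose. The vehicle range was 305 to 396 CPM around a median of 349, and the calcitriol range was 394 to 591 CPM around a median of 491. Only the lowest calcitriol library, replicate 2, fell within the vehicle range, and the other 10 were above it. The mean went from 354 ± 28.7 to 498 ± 56.8 CPM, a log2 change of 0.49 ± 0.06 (edgeR, adjusted p = 2.24e-07).

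Gimap7 encodes a GTPase that is active as a homodimer, and its libraries were the most scattered of the 8 members with vehicle (coefficient of variation 18.8%). It ran from 109 to 217 CPM with a median of 160 in vehicle libraries and from 167 to 257 CPM with a median of 232 in calcitriol libraries. Both ranges overlapped, with 9 of 11 calcitriol libraries above every vehicle library. From means of 161 ± 30.3 and 224 ± 28.6 CPM, the log2 change was 0.48 ± 0.09 (edgeR, adjusted p = 0.000313). The lowest libraries of either group were replicates 1 and 2, the ones that stood apart: they had 117 and 109 CPM with vehicle and 173 and 167 CPM with calcitriol, against 156 to 217 and 220 to 257 CPM in the others.

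Gimap8, the first member by position, encodes the largest protein of the family, with more than a single GTP-binding domain. Vehicle libraries held 157 to 208 CPM (median 197), and calcitriol libraries held 193 to 293 CPM (median 262). As with Gimap7, 9 of 11 calcitriol libraries were above every vehicle library, and the exceptions were replicates 1 and 2, at 199 and 193 CPM. The mean rose from 189 ± 18.1 to 253 ± 32.4 CPM, a log2 change of 0.42 ± 0.07 (edgeR, adjusted p = 1.81e-05).

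Gimap3 encodes a close relative of the Gimap5 protein. Its libraries ran from 268 to 405 CPM with a median of 346 with vehicle, and from 332 to 456 CPM with a median of 384 with calcitriol. The groups overlapped broadly, and only 4 of 11 calcitriol libraries were above every vehicle library. Its log2 change was 0.21 ± 0.07, from 338 ± 50.8 to 390 ± 39.6 CPM (edgeR, adjusted p = 0.0342). The call was lost without replicates 1 and 2 of both groups, where the log2 change was 0.16 and the adjusted p 0.0981. In the 11 libraries at or above the median total the log2 change was -0.02 (adjusted p = 0.884), and in those below it 0.43 (adjusted p = 0.00288). The low-depth libraries include all 4 that stood apart. Leaving out vehicle replicate 1, 2, 3 or 4, or calcitriol replicate 3, 4, 5 or 6, also ended the call, with adjusted p between 0.0504 and 0.0662.

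Gimap5 encodes the lysosomal family member whose loss causes lymphopenia. It ran from 93.6 to 120 CPM with a median of 111 with vehicle and from 101 to 132 CPM with a median of 123 with calcitriol. The overlap was wide, with 5 of 11 calcitriol libraries inside the vehicle range. The log2 difference was 0.12 ± 0.05 (95% confidence interval 0.0034 to 0.23; edgeR, adjusted p = 0.112), and it passed the test without calcitriol replicate 9 (0.14, adjusted p = 0.0480). In the libraries at or above the median total the log2 difference was 0.013 (adjusted p = 0.922), and in those below it 0.22 (adjusted p = 0.0560).

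Gimap9, which lies between Gimap8 and Gimap4, had the smallest difference. Vehicle libraries ran from 97.5 to 135 CPM with a median of 122, and calcitriol libraries from 109 to 139 CPM with a median of 129. All but 2 calcitriol libraries lay inside the vehicle range. The means of 121 ± 11.8 and 129 ± 8.34 CPM gave a log2 difference of 0.09 ± 0.05, with a 95% confidence interval of -0.02 to 0.20 (edgeR, adjusted p = 0.205), so that a rise of the size seen in Gimap1, Gimap4 or Gimap6 lies outside the interval.

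**Figure D1:**
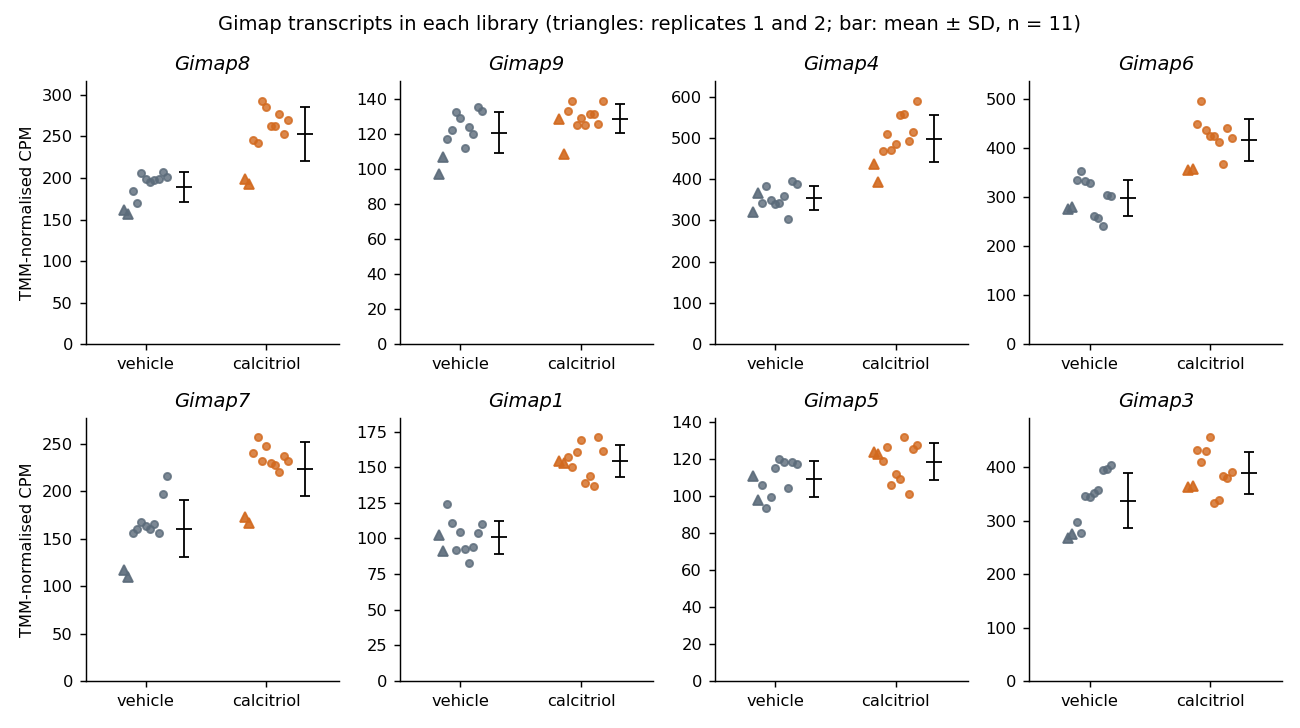
Level of each member (vertical axes, TMM-normalised CPM, from 0) in the 11 vehicle and 11 calcitriol libraries, with the genes in chromosomal order; points are libraries, triangles are replicates 1 and 2 of each group, and bars give the mean ± SD. For Gimap6 and Gimap1 every calcitriol point is above every vehicle point, whereas Gimap9 and Gimap5 overlap widely, and the triangles are the lowest points of both groups for Gimap7 and Gimap8.

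In all, 6 of 8 members were called higher and 0 of 8 lower at an adjusted p under 0.05. Over all tested genes 31.5% were called, 16.1% higher and 15.5% lower. The 2 members whose groups did not overlap, Gimap1 and Gimap6, compare with 2.77% of all genes with every calcitriol library above every vehicle library (1.59% had every one below). The median log2 change was 0.45 over the members and -0.01 over all genes. No member reached a 2-fold change: called members lay between 1.15-fold for Gimap3 and 1.53-fold for Gimap1, and the median absolute log2 change of all called genes was 0.35. The summed level of the cluster was 1670 ± 130 CPM (1453 to 1874) with vehicle and 2184 ± 157 CPM (1862 to 2334) with calcitriol, and the mean CPM rose most in Gimap4 and Gimap6. Every library held at least 337 counts of each member, and no member had over 8211 in a library.

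**Figure D2:**
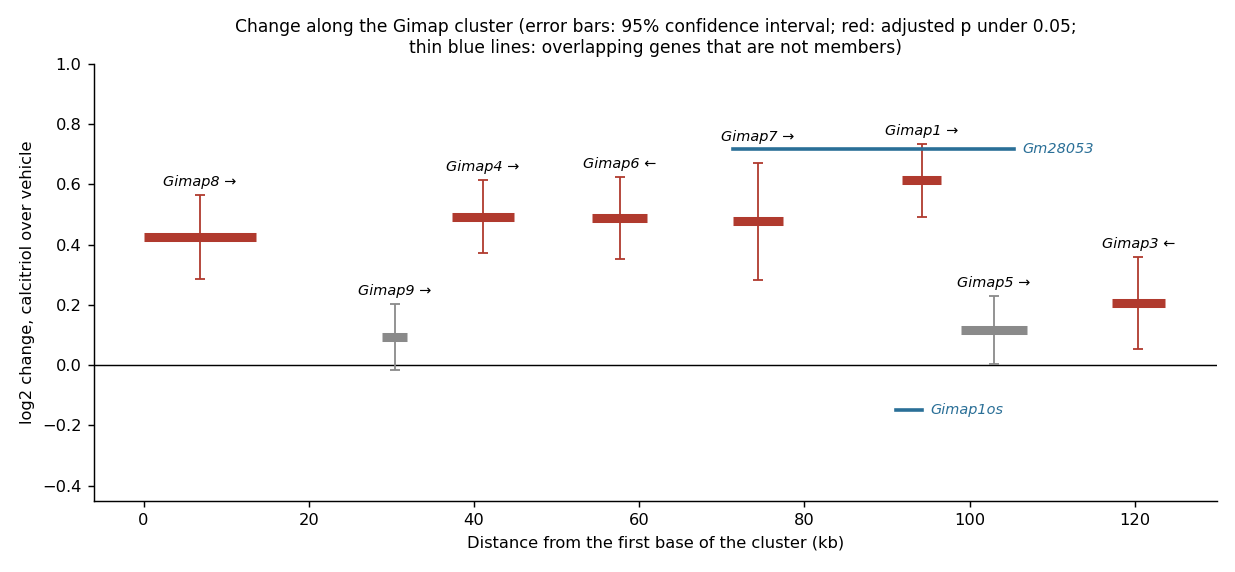
Log2 change with calcitriol (vertical axis) against distance from the first base of the cluster in kb (horizontal axis); thick bars span each gene, arrows by the names give the strand, error bars are 95% confidence intervals, red marks an adjusted p under 0.05, and thin blue lines are 2 overlapping genes that are not members. The run from Gimap4 to Gimap1 lies between 0.48 and 0.61, and Gimap9 (0.09) and Gimap5 (0.12) lie lower on either side of it.

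Position did not order the changes evenly. The 4 consecutive members Gimap4, Gimap6, Gimap7 and Gimap1 had log2 changes of 0.49, 0.49, 0.48 and 0.61, on both strands. Gimap9 lies 5.4 kb before Gimap4 and had 0.09, and Gimap8 lies 15.3 kb before Gimap9 and had 0.42. Gimap5 starts 2.4 kb after Gimap1 and had 0.12. The run was less even when libraries were split by depth. At or above the median total, Gimap4, Gimap6, Gimap7 and Gimap1 had 0.57, 0.61, 0.36 and 0.65. Below it they had 0.39, 0.39, 0.58 and 0.59, and the difference was not tested. Within single libraries, the log2 ratio of Gimap1 to Gimap5 was -0.12 ± 0.22 (SD, n = 11) with vehicle and 0.38 ± 0.14 with calcitriol, running from -0.52 to 0.24 and from 0.13 to 0.60. The ratio of Gimap4 to Gimap6 was 0.25 ± 0.16 with vehicle and 0.25 ± 0.16 with calcitriol. Over the 28 pairs of members, the ratio separated the groups completely in 0 pairs, and the ratios were not tested further.

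Some transcripts overlap the members, which limits what their counts can separate. Gimap1os, an antisense RNA, covers 36.0% of the exon bases of Gimap1 from the opposite strand, and it stood at 30.2 ± 4.80 CPM with vehicle and 27.3 ± 2.02 CPM with calcitriol (log2 -0.15 ± 0.08; edgeR, adjusted p = 0.161). It did not pass the test, and all 11 calcitriol libraries lay inside the vehicle range. In the libraries at or above the median total it had -0.28 (adjusted p = 0.0149) and in those below it -0.021 (adjusted p = 0.935), and it passed without vehicle replicate 3 (-0.19, adjusted p = 0.0338) and without scaling factors (-0.22, adjusted p = 0.0392). Gm28053 is a gene model that reads through Gimap7, Gimap1 and Gimap5 on the plus strand and shares 81, 198 and 153 exon bases with them, 3.48%, 6.44% and 3.69% of their exons. It ran from 2.26 to 10.2 CPM with vehicle and from 6.12 to 14.7 CPM with calcitriol, a rise of 0.72 ± 0.17 on the log2 scale (edgeR, adjusted p = 0.00164). How reads in shared bases were assigned, and with which strand setting, is not given in the sources used here. Gimap3 and Gimap5 share 190 stretches of 50 bases, 7.52% of those in Gimap3 and 4.53% of those in Gimap5, so a small part of their counts is uncertain.

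Levels of different members can be compared only per length. Per kb of exon, the vehicle level was 193 ± 15.6 CPM for Gimap4, 131 ± 19.7 for Gimap3 and 85.2 ± 10.5 for Gimap6. Next came Gimap9 at 73.6 ± 7.21, Gimap7 at 69.2 ± 13.0 and Gimap8 at 51.0 ± 4.89 CPM per kb, and last Gimap1 at 32.8 ± 3.81 and Gimap5 at 26.3 ± 2.30. Gimap4 was above Gimap3, and Gimap3 above Gimap6, without overlap between their ranges. Gimap6, Gimap9 and Gimap7 could not be ordered: Gimap6 was above Gimap9 in 9 of 11 vehicle libraries and Gimap9 above Gimap7 in 8 of 11. Gimap1 was above Gimap5 in 10 of 11 vehicle libraries and in 11 of 11 calcitriol libraries. With calcitriol, Gimap7 at 96.4 ± 12.3 CPM per kb stood above Gimap9 at 78.4 ± 5.08 in 10 of 11 libraries. Lengths matter here: over the longest transcript in place of all exons the vehicle level of Gimap7 was 127 CPM per kb, which puts it above Gimap6 at 93.7 and Gimap9 at 87.4, while Gimap4 at 196 and Gimap3 at 157 stayed highest. By that length Gimap1 at 62.4 also came above Gimap8 at 59.8, and Gimap5 at 46.9 stayed lowest.

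The size of the change also differed between the 4 libraries that stood apart and the other 18. As log2 ratios of mean CPM, Gimap1 was 0.67 within the 4 and 0.60 within the 18, and Gimap7 was 0.59 and 0.46. Gimap4 was 0.28 and 0.53, Gimap6 was 0.36 and 0.51, and Gimap8 was 0.30 and 0.44. Gimap3 was 0.42 and 0.17, Gimap5 was 0.24 and 0.09, and Gimap9 was 0.21 and 0.07. All 8 were positive within both sets, and the differences between the sets were not tested.

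**Figure D3:**
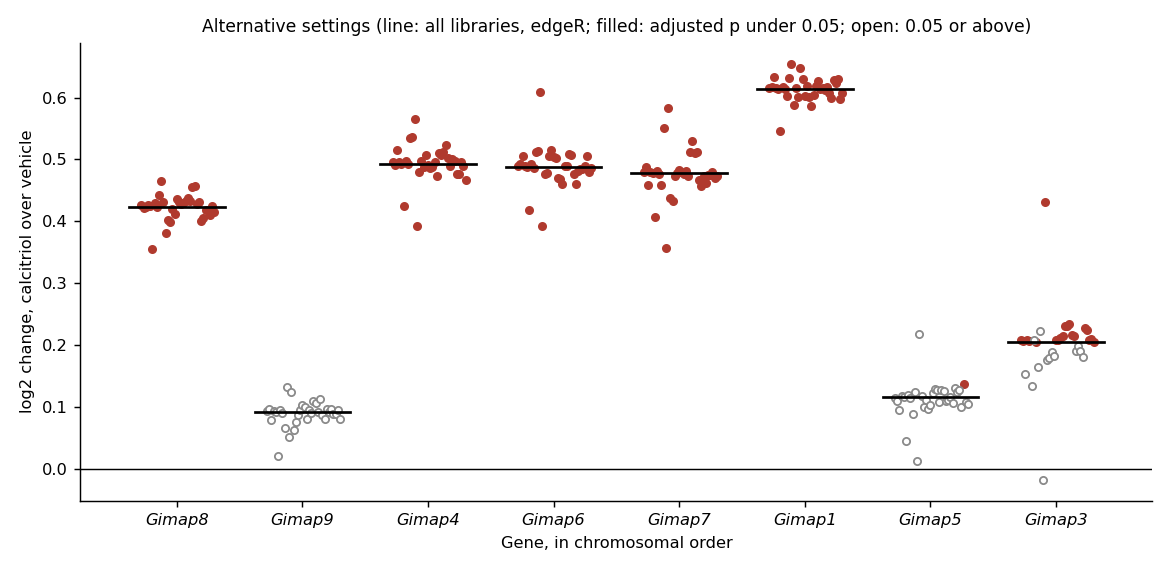
Log2 change of each member (vertical axis), in chromosomal order, under the alternative settings; the black line is the edgeR result over all libraries, filled points have an adjusted p under 0.05 and open points do not. Gimap8, Gimap4, Gimap6, Gimap7 and Gimap1 are filled throughout, while Gimap3 spreads from -0.02 to 0.43 and is open in many settings (the fold threshold of 1.2, which gives no change of its own, is not drawn).

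Within groups, members did not all vary together. Pearson correlations of log2 CPM, centred within each group over the 22 libraries, ran from -0.13 for Gimap6 with Gimap5 to 0.81 for Gimap9 with Gimap7, with a median of 0.25 over 28 pairs, 23 of them positive. Gimap7 followed Gimap8 at 0.79 and Gimap3 at 0.68, and Gimap8 followed Gimap9 at 0.62. Gimap1, the member with the largest rise, followed Gimap6 at 0.53 and the other members at 0.20 or less. These points share libraries, depth and scaling, and replicates 1 and 2 carried part of the correlation: over the other 18 libraries 18 of the 28 pairs were positive, from -0.44 to 0.62, with a median of 0.22. Without them Gimap8 with Gimap6 turned from 0.25 to -0.44 and Gimap8 with Gimap4 from 0.46 to -0.11, Gimap7 with Gimap8 was 0.19 and Gimap8 with Gimap9 was 0.13. Gimap9 with Gimap7 (0.62), Gimap1 with Gimap6 (0.60) and Gimap7 with Gimap3 (0.56) were less affected.

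**Figure D4:**
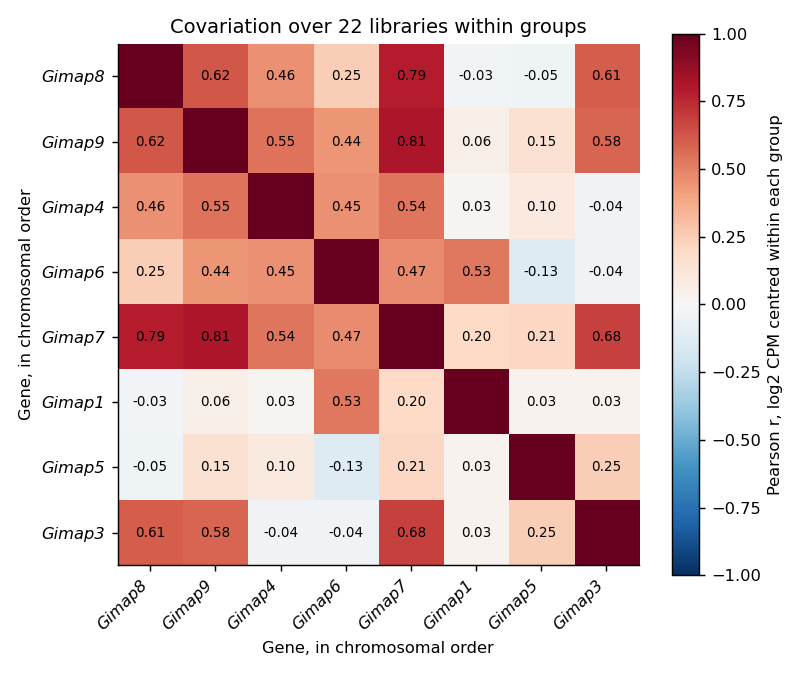
Pearson correlation between members over 22 libraries, on log2 CPM centred within each group, with genes in chromosomal order on both axes and the colour scale running from -1 (blue) to 1 (red). Gimap7, Gimap8, Gimap9 and Gimap3 correlate with each other at 0.58 to 0.81, whereas Gimap5 has values of -0.13 to 0.25 with every other member. These values pool both groups, which can differ in sign. Gimap5 with Gimap3 was 0.57 in vehicle and -0.25 in calcitriol libraries, and Gimap5 with Gimap8 was 0.51 and -0.47.

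For each member the 3 other genes with the most similar profile were found by the same correlation over all 22 libraries. None of the 24 genes lay within 500 kb of the cluster, and their r ran from 0.78 to 0.94. They were picked as the highest among all tested genes, so high values follow in part from the selection. The libraries that stood apart carried part of the correlation between members. Whether the values below hold without those libraries was not tested. Gimap8 was most like Arhgef18 (0.94), Cyp11a1 (0.94) and Lag3 (0.93), and Gimap7 most like Sfi1 (0.94), Grap2 (0.92) and Kcnh2 (0.89). Gimap9 was most like Etnk1 (0.87), Chtop (0.82) and C730034F03Rik (0.78), and Gimap4 most like Cop1 (0.87), Gsk3b (0.82) and Dtx3l (0.82). The nearest profiles to Gimap6 were H2-T22 (0.88), Gbp3 (0.84) and Il16 (0.84), and to Gimap1 they were Os9 (0.84), Psmb9 (0.83) and H2-M3 (0.82). Gimap5 was nearest to Pafah1b3 (0.83), Bicdl1 (0.82) and Grin1 (0.78), and Gimap3 to Itih5 (0.92), Cyth1 (0.89) and Lfng (0.85). With calcitriol, 4 of these 24 genes were called higher, 7 lower and 13 neither, where 31.5% of all tested genes were called in either direction.

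The surrounding genes changed in both directions. Of 51 annotated genes within 500 kb of the cluster that are not members, 16 had enough counts to be tested, with a median log2 change of -0.01. Outside the cluster, 3 of 13 tested genes were higher and 2 lower. Those higher were Krba1 (0.34 ± 0.08; edgeR, adjusted p = 0.00278), Malsu1, which encodes a mitochondrial ribosome assembly factor (0.24 ± 0.05; adjusted p = 0.000454), and Igf2bp3, which encodes an RNA-binding protein (0.39 ± 0.10; adjusted p = 0.00363). Those lower were Sspo, the gene of the secreted protein SCO-spondin (-1.18 ± 0.21; adjusted p = 5.66e-05), and the pseudogene Zfp862-ps (-0.36 ± 0.06; adjusted p = 5.60e-05). The genes nearest to the cluster did not pass: AI854703, Zfp775 and Repin1 lie 13.5, 24.0 and 48.2 kb before it (adjusted p = 0.327, 0.0555 and 0.0916), and Tmem176b lies 63.0 kb after it (adjusted p = 0.919). Zfp467, Atp6v0e2, Lrrc61 and Tra2a did not pass either, nor did the RNA 4833403J16Rik between Gimap5 and Gimap3. With Gm28053 counted, 37.5% of the 16 genes were called, against 31.5% of all genes. Malsu1 and Igf2bp3 overlap on opposite strands, so their reads cannot be told apart with certainty. Krba1 did not pass in the libraries at or above the median total (adjusted p = 0.0901), nor did Sspo (0.194) and Zfp862-ps (0.0626) in those below it.

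Further genes were read from lists, and whether they act with or on the family was not tested. Among 10 tested candidate regulators, transcription factors and Notch signalling genes of lymphocytes, 2 rose and 3 fell, with a median log2 change of -0.02, so that 50% were called against 31.5% of all genes. Ets1, an ETS factor of T cells, went from 547 ± 45.8 to 878 ± 86.9 CPM (0.68 ± 0.06; edgeR, adjusted p = 1.84e-10), and Ikzf1, which encodes Ikaros, from 244 ± 14.9 to 331 ± 18.5 CPM (0.44 ± 0.04; adjusted p = 3.21e-09). Both separated the groups completely. Runx1 was among those that fell, with the receptor gene Notch2 (-0.50 ± 0.08; adjusted p = 4.12e-05) and Tcf7, which encodes TCF-1 (-0.67 ± 0.16; adjusted p = 0.00205).

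The autophagy list, chosen because Gimap6 binds an ATG8 protein, had 2 of 18 genes higher and 2 lower, with a median log2 change of 0.03. That is 22.2% called, below the 31.5% of all genes. Higher were Atg14, a subunit of the lipid kinase complex that starts autophagosomes (0.62 ± 0.08; edgeR, adjusted p = 6.46e-07), and Map1lc3b, an ATG8 gene (0.31 ± 0.05; adjusted p = 1.91e-05). Lower were the ATG8 genes Gabarapl1 (-0.32 ± 0.07; adjusted p = 0.000466) and Map1lc3a (-0.38 ± 0.09; adjusted p = 0.00179). Gabarapl2, the partner of Gimap6, was singled out after its values were seen: it stood at 40.8 ± 2.96 CPM with vehicle and 43.8 ± 3.40 CPM with calcitriol and did not pass (adjusted p = 0.135).

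Of 12 BCL2 family genes, which set the threshold for cell death and whose proteins some GIMAPs have been reported to bind, 4 rose and 3 fell (median log2 change 0.05), so that 58.3% were called against 31.5% of all genes. Genes of either role were found in both directions. Bcl2l11, which encodes the death-promoting protein BIM, rose from 27.5 ± 4.39 to 59.7 ± 11.9 CPM (1.12 ± 0.11; edgeR, adjusted p = 5.33e-09), and Bax, a pore former, rose by 0.40 ± 0.08 (adjusted p = 0.000204). The death-promoting Pmaip1 and the protective Mcl1 rose as well. Bcl2l1, which encodes the protective protein BCL-XL, fell from 38.6 ± 6.46 to 24.0 ± 3.09 CPM (-0.68 ± 0.09; adjusted p = 9.06e-07), and Bcl2a1b, another protective member with near-identical copies, fell (-0.61 ± 0.15; adjusted p = 0.00304), as did the death-promoting Bmf.

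Among 18 genes of quiescent and naive T cells, cells in which Gimap transcripts are abundant, 6 rose and 4 fell, with a median log2 change of -0.01, so that 55.6% were called against 31.5% of all genes. The chromatin organiser Satb1 (0.49 ± 0.05; edgeR, adjusted p = 6.12e-09) and the transcription factor Foxo1 (0.31 ± 0.07; adjusted p = 0.00137) rose, and so did Klf2, Il7r, Btg2 and Txnip. Tsc22d3, a glucocorticoid-induced gene (-0.82 ± 0.08; adjusted p = 1.41e-08), and the lymph node homing receptor Ccr7 (-0.94 ± 0.18; adjusted p = 0.000345) fell, with Bach2 and Tcf7.

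Of 15 tested interferon-inducible and dynamin-like GTPase genes, 6 rose and 4 fell (median log2 change 0.02), so that 66.7% were called against 31.5% of all genes. The 6 that rose were guanylate-binding protein genes: Gbp2, Gbp2b, Gbp3, Gbp4, Gbp5 and Gbp7, with Gbp3 at 1.02 ± 0.10 (edgeR, adjusted p = 6.23e-09) and Gbp7 at 0.69 ± 0.06 (adjusted p = 5.43e-10). Those that fell were the immunity-related GTPase genes Igtp, Tgtp1 (-0.94 ± 0.15; adjusted p = 1.68e-05) and Tgtp2 (-0.92 ± 0.20; adjusted p = 0.000818), and Mx2, a dynamin-like gene. Tgtp1 and Tgtp2 are near-identical copies, as are several Gbp genes, and their separate counts are uncertain. In the libraries below the median total, Gabarapl1, Map1lc3a, Bcl2a1b, Tcf7, Foxo1 and Ccr7 did not pass (adjusted p = 0.136, 0.294, 0.111, 0.433, 0.143 and 0.112), and Tgtp2 did not pass in the others (adjusted p = 0.118). Beside these, the called Gimap members moved by 0.21 to 0.61 on the log2 scale.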

How the data were processed

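Total RNA was sequenced in 22 libraries made with the TruSeq Stranded Total RNA Globin kit, per the labels' protocols. The authors deposited raw counts per Ensembl gene. STAR 2.7.10a, HTSeq 0.13.5 and GRCm38 were used, per the submitters' processing notes. The part of each tool, the release of the annotation, the counting mode and the strand setting: not given in the sources used here. Columns were assigned to samples through their titles, and groups came from the treatment label.

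Symbols, positions and exon lengths came from GENCODE M21, which is on GRCm38 (345 identifiers had no symbol). Counts were filtered with filterByExpr, scaled with TMM factors and tested with edgeR 4.0.16 (R 4.3.3), a robust quasi-likelihood test of calcitriol against vehicle with no covariate, over all 22 libraries. P-values were adjusted by the Benjamini-Hochberg method over 11905 genes, with a threshold of 0.05. A log2 change is calcitriol over vehicle with its standard error, and levels are CPM as mean ± SD over 11 libraries. Correlations used log2 CPM with a prior count of 2. Marker sums, depth, detected genes and the mitochondrial share were compared by two-sided permutation tests (100000 resamples) with adjustment over these measures. Depth, from 3214171 to 20258430 counts, left at least 337 counts per member and library.

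Within groups, 110 pairs of libraries differed by a chi-square per degree of freedom of 2.59 to 30.5, and none was merged in the main test. Such values cannot tell separate cultures from separate libraries of the same culture. The edgeR script was tested on simulated counts.

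Alternatives were DESeq2 1.42.0, limma-voom (limma 3.58.1) with and without library quality weights, other scaling factors and filters, a fold threshold of 1.2, leaving out each library, leaving out replicates 1 and 2 of both groups, summing libraries that were each other's best match within a group, and splitting at the median total. The text names every member, the tested genes within 500 kb, up to 2 called genes with the smallest p in each direction per list (other called genes by symbol), and the 3 most correlated genes per member. The members and lists were chosen with earlier results of these data known.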

Additional observations from a re-analysis of the deposited data

How the results depend on the processing

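Gimap8, Gimap4, Gimap6, Gimap7 and Gimap1 kept their direction and their call under all 35 alternatives, with log2 changes of 0.36 to 0.47, 0.39 to 0.57, 0.39 to 0.61, 0.36 to 0.58 and 0.55 to 0.65. Gimap9 passed under none (0.02 to 0.13), and Gimap5 passed under 1, without calcitriol replicate 9 (0.14), with a range of 0.013 to 0.22 over all alternatives and 0.097 to 0.14 when single libraries were left out. The number of members called was 5 to 7 when single libraries were left out and 5 under the alternatives that ended the call of Gimap3. These were, beside leaving out 8 single libraries (log2 change 0.18 to 0.23 over all such settings), quality weights (0.15, adjusted p = 0.0993), library size alone as scaling (0.13, adjusted p = 0.181), no filter on low counts (0.21, adjusted p = 0.0607), leaving out replicates 1 and 2 of both groups (0.16, adjusted p = 0.0981), summed sets of alike libraries (0.22, adjusted p = 0.0961), a fold threshold of 1.2 (adjusted p = 1.0) and the deeper libraries, where its sign turned (-0.017, adjusted p = 0.884). The cause was not tested. Library size alone moved the median log2 change of all genes to -0.08 from -0.01. Over all genes 3755 were called, and 3467 to 3806 when single libraries were left out. In the shallower libraries 1766 were called. The deeper libraries, 5 vehicle and 6 calcitriol, were no more numerous, yet more genes were called in them. The reason for this difference was not tested. Past a fold of 1.2, 1166 genes were called. That fold threshold left 2 of the 6 called neighbouring genes. Each member had 337 counts or more in every library, and the parts of counting and of spread between libraries in the precision were not tested. No paired analysis was possible because the labels give no replicate numbers that tie a calcitriol library to a vehicle library.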
